A study of Mus musculus with 6 samples.

Results

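Heat shock proteins and their DnaJ partners were examined in poly(A) RNA from brain tissue of adult male C57 mice, with 3 libraries from animals of high and 3 from animals of low sexual motivation. The genes are the 64, of 13170 in the deposited expression table, whose symbol starts with Hspa, Hspb, Hspd, Hspe, Hsph, Hsp90 or Dnaj. They comprise 13 Hspa, 6 Hspb, 3 Hsp90, 4 Dnaja, 10 Dnajb and 25 Dnajc genes and 1 gene each of Hspd, Hspe and Hsph. All 6 libraries carry the same strain label, with no transgene, deletion or drug named. Age in weeks, the scoring of motivation and any pooling of animals are not stated in the labels. The series title places the work in the medial amygdala, while the extraction protocol names PrL. Nothing says that the libraries come from separate animals, so a p-value reflects no more than the spread among the libraries, and that spread may be technical.

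Chaperones bind unfolded or unstable proteins and help them to fold, to cross membranes or to be taken out of aggregates. Hsp70 proteins do this in cycles of ATP hydrolysis: a DnaJ protein (also called Hsp40) delivers the client and triggers hydrolysis through its J domain, and Hsp110 proteins exchange the nucleotide. Hsp90 takes over clients such as kinases and steroid receptors, Hsp60 with Hsp10 forms a folding chamber in mitochondria, and small heat shock proteins hold unfolded proteins without ATP. Heat shock factor 1 induces the cytosolic genes under stress, whereas the unfolded protein response induces those of the endoplasmic reticulum.

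Levels are FPKM, fragments per length of transcript and per number of mapped fragments, so that levels of different genes can be set side by side. A log2 difference is the mean of log2(FPKM + 1) in the high group minus that in the low group. Adjusted p-values are from limma with Benjamini-Hochberg adjustment over the 12026 genes with a mean of at least 1 FPKM. Library values are given in the order 1, 2, 3, and a group value is a mean ± SD over 3 libraries. Of the chaperone genes, 61 reached that mean. Dnajc25 (0.942 FPKM) and Dnajb3 (0.787) lay just under it, followed by Hspa1l (0.766), while Hspbap1 (1.36) and Hspa12b (2.09) lay just above.

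The depth of the libraries relative to high library 1 spanned 0.954 to 1.33, and absolute depth is unknown. The neuronal markers Snap25, Rbfox3 and Syt1 summed to 383 to 448 FPKM in a library. Of 6 amygdala markers 4 could be read, at a sum of 84.1 to 119 FPKM, and Cyp19a1 and Sim1 were not analysed here. Npy made up most of that sum, at 66.0 to 101 FPKM. Esr1, at a mean of 0.857 FPKM, had 0.446, 0.705 and 0.806 FPKM (high) against 1.09, 0.935 and 1.16 FPKM (low). It was lower in every high library, while Npy, Lhx6 and Tac1 overlapped between the groups. The 5 cortical markers summed to 157 to 277 FPKM, most of it from Slc17a7 at 138 to 256 FPKM. Which region was sampled, medial amygdala or PrL, was not tested with these markers. The 12 choroid plexus markers summed to 1342 FPKM in low library 1 and 4180 in low library 3, against 42.1 to 112 in the other libraries. The 9 ependymal and motile cilia markers summed to 12.8 to 15.0 FPKM in the high group and 23.7 to 45.4 in the low group. Of these, 8 of 9 had all high libraries below all low ones (7.61% of all tested genes). The 7 oligodendrocyte markers summed to 407, 341 and 396 FPKM (high) against 313, 335 and 349 FPKM (low). Of the 7, 4 (Mobp, Mog, Mbp and Cnp) had all high libraries above all low ones (7.33% of all tested genes). High library 2 stood apart: it was the highest or the lowest of the 6 libraries in 33 of 61 chaperone genes (54.1%) and in 46.2% of all tested genes. In bulk tissue, fewer cells of a type and less RNA per cell cannot be told apart.

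No chaperone gene passed the test. At an adjusted p under 0.05 limma called 0 of 61 chaperone genes and 0 of 12026 genes (0%). At an unadjusted p under 0.05 there were 4 (6.56%), where the same threshold took 8.39% of all tested genes. Of these, 2 were higher in the high group (4.12% of all tested genes) and 2 lower (4.27%). The groups did not overlap in 9 genes (14.8%), against 14.9% of all tested genes. Of the 9, 3 had all high libraries above all low ones (7.33% of all tested genes) and 6 had them below (7.61%). These shares are near the background. By the sign of the log2 difference, 25 of 61 were higher and 36 (59.0%) lower, with 49.9% of all tested genes lower. The median log2 difference was −0.04 for the chaperone genes and 0.00018 for all tested genes.

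The differences were small as well as uncalled. In FPKM, the group means of all 64 genes lay within 1.5-fold of each other. For 57 of the 61 tested genes the 95% confidence interval on the log2(FPKM + 1) scale excluded a 1.5-fold difference of FPKM + 1 in either direction. The other 4 were Hspb1, Hspa1b, Hspa13 and Dnajb9. At low levels a 1.5-fold difference of FPKM + 1 is a larger fold difference in FPKM, which the interval may not exclude. Small differences were no trait of the chaperone genes. Their median absolute log2 difference was 0.082, against 0.080 for all tested genes, and their median SE 0.0893, against 0.0900. Since the spread among libraries may be technical, these intervals may not bound a difference between animals.

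**Figure D1:**
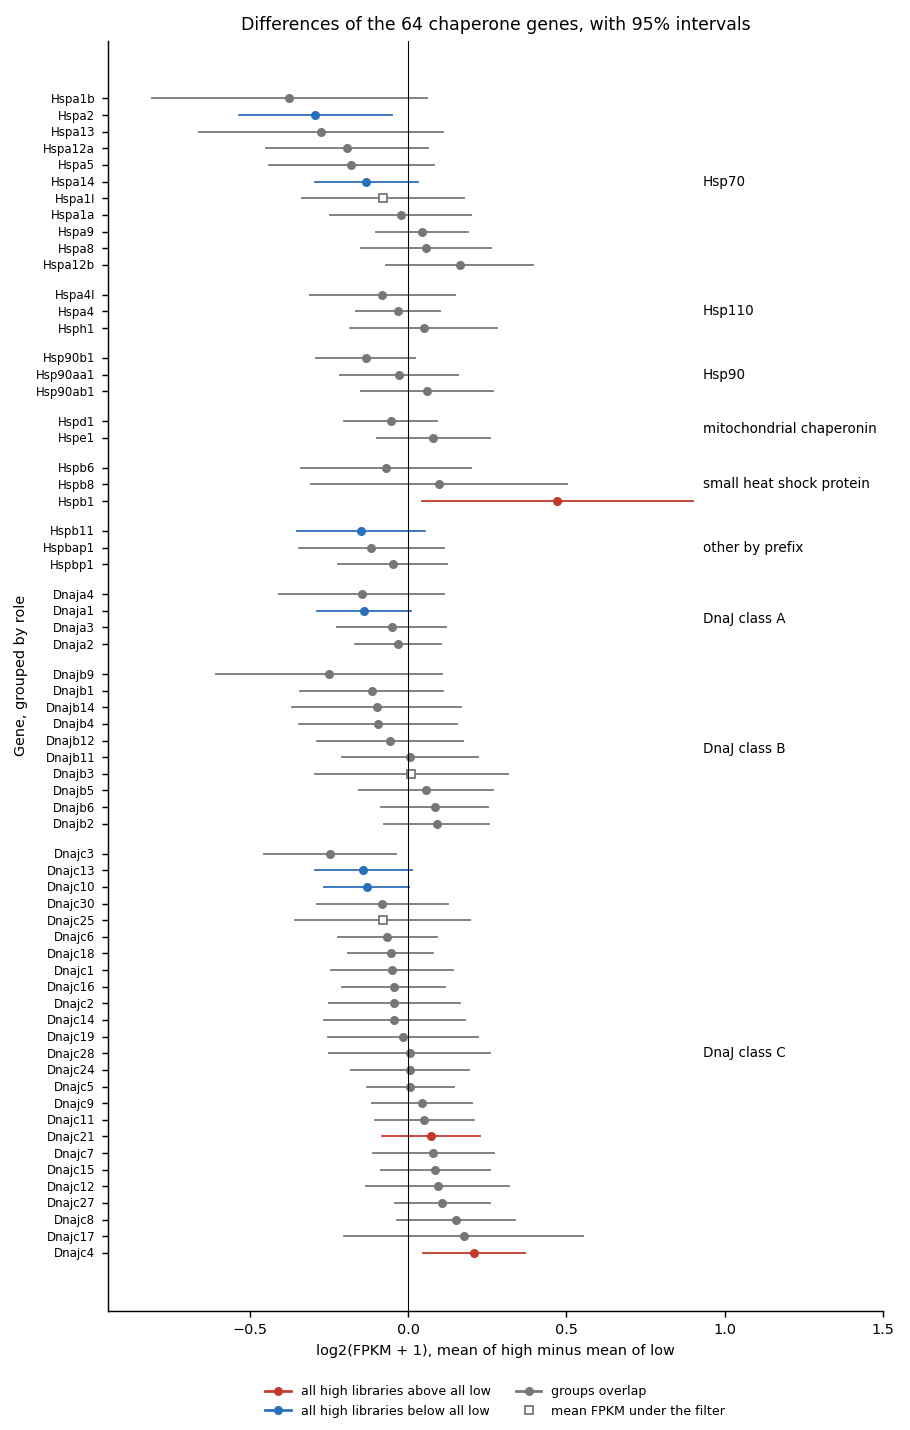
Log2 difference between the high and low groups for each of the 64 genes, grouped by role, on the log2(FPKM + 1) scale. Points are estimates and bars 95% intervals; colours mark the 9 genes whose groups did not overlap, and open squares the 3 genes under a mean of 1 FPKM. Most intervals include 0, and the median of the tested genes is −0.04.

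The most abundant chaperones were those of the cytosol, and their levels overlapped between the groups. Hsp90ab1, the constitutive cytosolic Hsp90, had the highest mean of the family, 628 FPKM. Hspa8, which encodes the constitutive Hsc70, followed at 387 FPKM and Hsp90aa1, the inducible Hsp90, at 228 FPKM. These 3 genes held 51.1% of the summed mean FPKM of the 64. The sum over all 64 was 2435 ± 162 FPKM in high and 2430 ± 63.6 FPKM in low libraries, or 0.901% to 1.05% of the summed FPKM of a library.

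Hsp90ab1 had 637, 703 and 584 FPKM (high) against 624, 625 and 592 FPKM (low). High library 2 was the highest and high library 3 the lowest, so the low values lay within the range of the high ones (log2 difference 0.06, SE 0.0905, 95% interval −0.15 to 0.27; adjusted p = 0.856). Hspa8 had 395, 434 and 357 FPKM (high) against 382, 394 and 363 FPKM (low), again with the extremes in high libraries 2 and 3 (log2 difference 0.06, 95% interval −0.15 to 0.26; adjusted p = 0.864). Hsp90aa1 had 226, 244 and 206 FPKM (high) against 235, 236 and 218 FPKM (low) (log2 difference −0.03, 95% interval −0.22 to 0.16; adjusted p = 0.927). In these 3 genes the SD of the high group exceeded the difference of the means. Without high library 2 the log2 difference was −0.0131 for Hspa8 and −0.0083 for Hsp90ab1, so that their direction rested on that library.

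**Figure D2:**
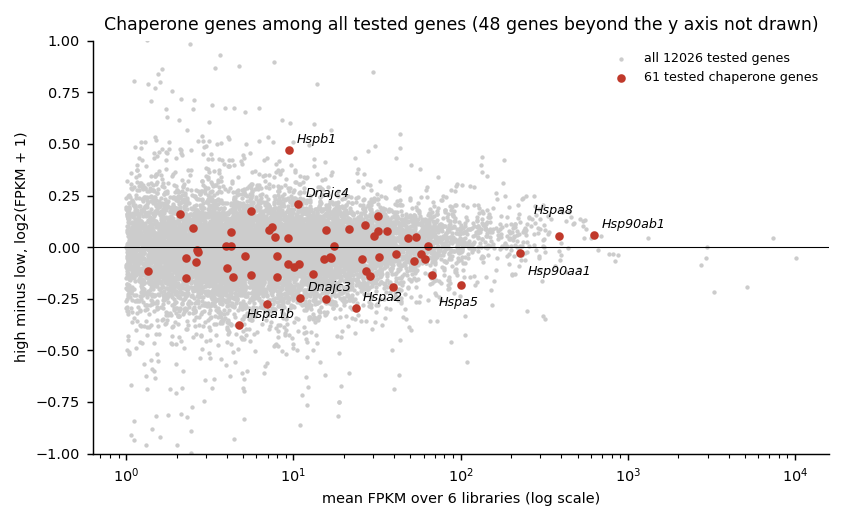
Log2 difference (high minus low, log2(FPKM + 1) scale) against the mean FPKM on a log axis for the 61 tested chaperone genes, in red, over all 12026 tested genes, in grey. The abundant Hsp90ab1, Hspa8 and Hsp90aa1 lie near 0 and Hspb1 is the highest of the chaperones; 48 genes beyond the vertical axis are not drawn.

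Genes of the inducible heat shock response overlapped between the groups. Hspa1a and Hspa1b encode the stress-inducible Hsp70 and lie on chromosome 17 (34969190 to 34972156 and 34956436 to 34959238 in GRCm38). Their coding sequences of 1926 and 1929 bases are 99.4% identical, with 11 bases differing or gapped, so reads may have been split between them and each value is uncertain. Hspa1a had 2.79, 2.59 and 2.62 FPKM (high) against 2.51, 2.51 and 3.19 FPKM (low), with overlapping groups (log2 difference −0.02; adjusted p = 0.953). Hspa1b had 4.18, 4.73 and 3.03 FPKM (high) against 3.85, 6.38 and 6.29 FPKM (low). Low libraries 2 and 3 were above all others, but low library 1 lay among the high libraries (log2 difference −0.38, SE 0.188; adjusted p = 0.605). The log2 difference of Hspa1b was −0.57 without low library 1 (adjusted p = 0.882), −0.58 without low libraries 1 and 3 and −0.23 without high library 3.

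Dnajb1, the DnaJ partner of inducible Hsp70, had 25.9, 29.97 and 22.4 FPKM (high) against 27.9, 28.1 and 28.5 FPKM (low). The low libraries lay close together, inside the range of the high libraries (log2 difference −0.12; adjusted p = 0.741). It was −0.22 without high library 2 (adjusted p = 0.349) and −0.01 without high library 3. Hsph1, which encodes Hsp105 of the Hsp110 family, had 54.5, 60.3 and 49.7 FPKM (high) against 49.9, 60.03 and 49.2 FPKM (low), and library 2 was the highest in either group (log2 difference 0.05; adjusted p = 0.897). The other Hsp110 genes overlapped too. Hspa4 had 41.1, 41.6 and 39.1 FPKM (high) against 41.4, 40.5 and 42.7 FPKM (low), and Hspa4l had 11.5, 8.97 and 11.04 FPKM (high) against 10.7, 12.1 and 10.6 FPKM (low).

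Among small heat shock proteins, Hspb1 showed the largest log2 difference of the 61 tested genes. It encodes Hsp25, which binds unfolded proteins and regulates actin filaments, and lies on chromosome 5 from 135887919 to 135889563. It had 14.1, 9.19 and 10.05 FPKM (high) against 5.73, 9.13 and 8.34 FPKM (low), or 11.1 ± 2.61 against 7.73 ± 1.78 FPKM. All high libraries were above all low libraries, high library 2 by a small margin over low library 2 (log2 difference 0.47, SE 0.186, 95% interval 0.04 to 0.90; adjusted p = 0.582). With high library 1 left out the log2 difference of Hspb1 was 0.30, and with low library 1 left out it was 0.29. With the trend in GC content and transcript length taken out of each library, as below, its unadjusted p was not under 0.05.

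High library 1, with the highest Hspb1, also had the highest sums of vessel and leptomeningeal markers. The 9 endothelial and mural markers that were read summed to 99.8, 66.7 and 77.0 FPKM (high) against 59.1, 69.1 and 67.5 FPKM (low). Of the 9, 2 had all high libraries above all low ones (7.33% of all tested genes). The 8 leptomeningeal markers summed to 67.7, 13.7 and 35.0 FPKM (high) against 12.6, 21.5 and 20.4 FPKM (low). Of the 8, 0 had separate groups (14.9% of all tested genes). The part of these cells in the Hspb1 values was not tested. Hspb8, the partner of Bag3, had 8.01, 7.02 and 7.77 FPKM (high) against 6.96, 5.15 and 9.61 FPKM (low), and Hspb6, or Hsp20, had 2.4997, 2.403 and 2.59 FPKM (high) against 2.22, 2.56 and 3.32 FPKM (low). Both overlapped, with low library 3 the highest of the 6.

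Of the 10 tested Hsp70 genes, 7 were lower and 3 higher in the high group, with 0 called and a median log2 difference of −0.16. Without high library 2, 8 were lower and the median was −0.09, and without low library 2, 7 were lower and the median was −0.10. Hspa2, an Hsp70 best known from male germ cells, had 20.2, 24.8 and 18.2 FPKM (high) against 25.5, 25.3 and 26.9 FPKM (low). All high libraries were below all low libraries, with high library 2 near them (log2 difference −0.29, SE 0.105; adjusted p = 0.575). Without high library 2 the log2 difference was −0.41 with an adjusted p of 0.117, the smallest for any chaperone gene over the settings tried. Hspa2 lies on chromosome 12, from 76404176 to 76406938.

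Hspa12a, a distant Hsp70 relative expressed in brain, had 34.6, 42.96 and 32.2 FPKM (high) against 41.9, 38.4 and 44.96 FPKM (low). As for Hspa2, high library 2 was the highest of its group, and here it lay among the low libraries (log2 difference −0.19; adjusted p = 0.644). Without it the log2 difference was −0.31 (adjusted p = 0.227), and without high library 3 it was −0.11. Hspa14, a ribosome-associated relative, had 5.46, 5.06 and 5.22 FPKM (high) against 5.86, 6.16 and 5.52 FPKM (low), with separate groups and a log2 difference of −0.13 (adjusted p = 0.617). Hspa12b, known from endothelium, had 2.15, 2.53 and 2.11 FPKM (high) against 1.68, 2.18 and 1.89 FPKM (low) and overlapped.

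**Figure D3:**
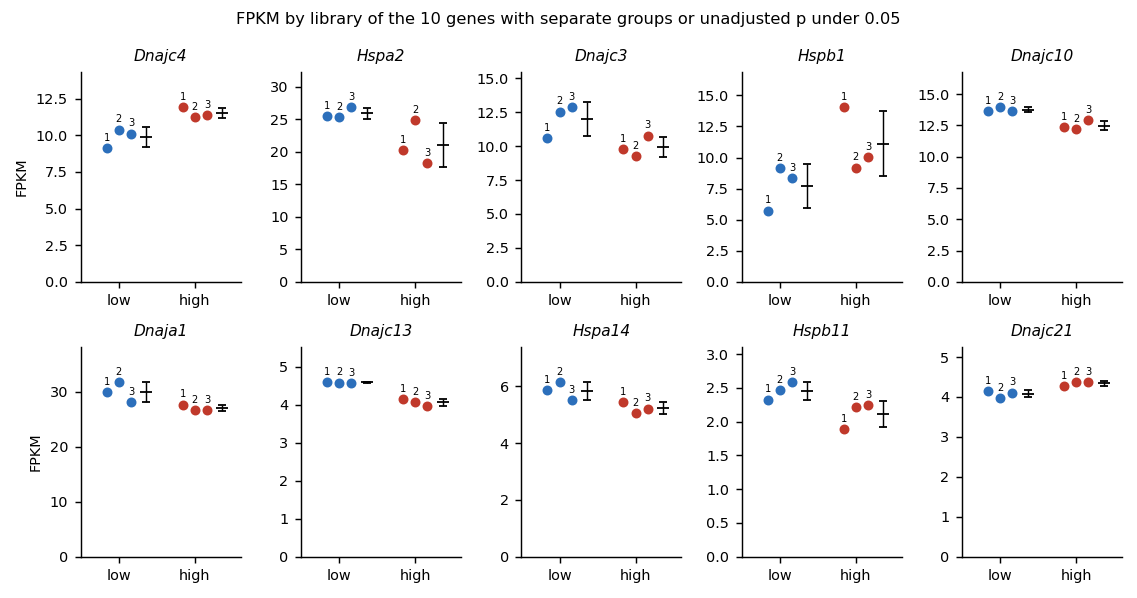
FPKM in each library of the 10 genes whose groups did not overlap or whose unadjusted p was under 0.05. Points are libraries with their number, low in blue and high in red, and black bars are the mean ± SD of 3 libraries; Dnajc3 is the 1 gene of the 10 whose groups overlap.

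Most chaperones of the endoplasmic reticulum lumen had lower means in the high group, and none passed the test. These 7 genes were grouped after their values had been seen, so the count is a description. Of the 7, 6 were lower and 1 higher, with a median log2 difference of −0.18. Without high library 2, 7 of the 7 were lower with a median of −0.12, and without low library 2, 6 were lower, also with a median of −0.12. Their summed FPKM was 212, 231.2 and 211 in high against 232.4, 265 and 235 in low libraries. High library 2 and low library 1 were nearly level, so the groups were separate by a narrow margin. Most of each sum came from Hspa5 and Hsp90b1, with means of 100 and 66.9 FPKM, and each of these overlapped between the groups.

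Hspa5 encodes BiP, the Hsp70 of the endoplasmic reticulum, and had 88.7, 108 and 84.7 FPKM (high) against 97.7, 119.7 and 102 FPKM (low). In either group library 2 was the highest, and high library 2 lay within the low range (log2 difference −0.18, SE 0.113; adjusted p = 0.664). The log2 difference of Hspa5 was −0.29 without high library 2 (adjusted p = 0.333), −0.11 without high library 3 and −0.09 without low library 2. Hsp90b1, or Grp94, had 61.7, 66.7 and 62.8 FPKM (high) against 68.96, 74.8 and 66.6 FPKM (low), where high library 2 exceeded low library 3 by a small margin (log2 difference −0.14, SE 0.0677; adjusted p = 0.605). For Hsp90b1 it was −0.17 without high library 2 (adjusted p = 0.431) and −0.09 without low library 2. Dnajc3, also called p58IPK, is a DnaJ partner of BiP that also restrains the kinase PERK. It had 9.76, 9.29 and 10.8 FPKM (high) against 10.6, 12.5 and 12.9 FPKM (low), and low library 1 lay within the high range (log2 difference −0.25, SE 0.0903; adjusted p = 0.575).

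The other genes of the lumen differed in pattern. Dnajc10, or ERdj5, a reductase, had 12.4, 12.2 and 12.9 FPKM (high) against 13.7, 13.98 and 13.7 FPKM (low), with separate groups (log2 difference −0.13, SE 0.0583; adjusted p = 0.596). Dnajb9, or ERdj4, had 16.7, 10.4 and 15.95 FPKM (high) against 16.9, 17.6 and 16.3 FPKM (low). High library 2 was far below the rest, and without it the log2 difference was −0.05, against −0.25 with it (adjusted p = 0.663). Hspa13, an Hsp70 relative of microsomes, had 6.94, 4.32 and 7.58 FPKM (high) against 8.15, 7.73 and 7.06 FPKM (low). High library 2 was again the lowest, and the log2 difference was −0.06 without that library and −0.28 with it (adjusted p = 0.658). Dnajb11, or ERdj3, had 16.1, 19.9 and 16.8 FPKM (high) against 16.5, 18.98 and 17.03 FPKM (low), nearly the same range in either group. Hspa13 and Dnajb11 were chosen for description after their values were seen.

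GC content of the transcripts moved with these values. Across genes, which are not independent replicates, the log2 difference had a Spearman rho of 0.379 with GC content over 11924 genes and of 0.254 over the 61 tested chaperone genes. Over those 61, the log2 level in high library 2, less the mean of the remaining libraries, had a rho of 0.432 and that of low library 2 of −0.360. Over all 11924 genes these were 0.419 and −0.482, so the trend was no trait of the chaperone genes. With the GC and length trend taken out of each library, 7 of the 7 genes were lower with a median of −0.15. The log2 difference was then −0.16 for Hspa5, −0.06 for Hsp90b1, −0.15 for Dnajc3 and −0.01 for Dnajc10, and the median of all chaperone genes was −0.01. Of the 61 chaperone genes, 2, Hspa2 and Hspa12a, were then at an unadjusted p under 0.05, with 7.62% of all genes. Dnajc4, Hspb1 and Dnajc3, under that threshold without this step, were not under it.

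**Figure D4:**
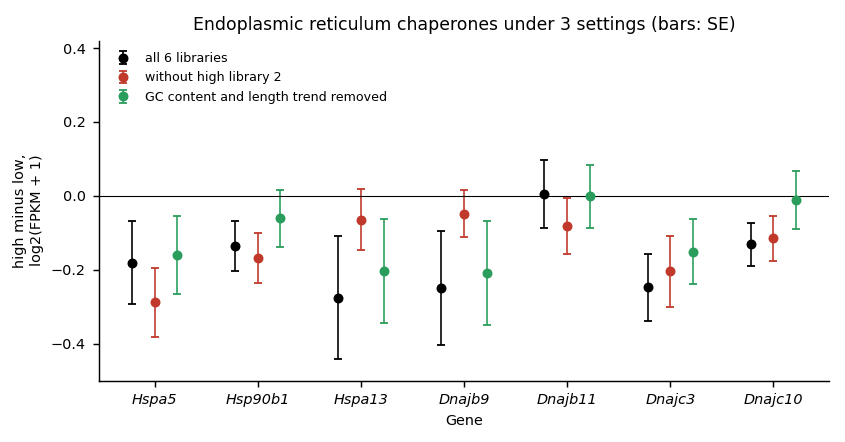
Log2 difference (high minus low, log2(FPKM + 1) scale) of the 7 endoplasmic reticulum chaperone genes with all 6 libraries (black), without high library 2 (red) and with the GC content and length trend taken out (green). Bars are standard errors. Without high library 2 Hspa13, Dnajb9, Dnajc3 and Dnajc10 move towards 0 while Hspa5, Hsp90b1 and Dnajb11 move down. Without the GC trend all 7 are lower in the high group, Dnajb11 by a change of sign. Hspa5, Hsp90b1, Dnajc3 and Dnajc10 then lie closer to 0.

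Some of these genes carry the element through which the unfolded protein response is known to act. RefSeq promoter windows of GRCm38.p6, from 250 bases before to 50 bases after a transcript start, were found for 53 of the 64 genes. The ER stress element, searched on both strands as CCAAT, then 9 bases of any kind, then CCACG, was found in 3 of the 53, Hspa5, Hsp90b1 and Dnajc3, and in 0.137% of the 27025 genes with a window. The stretches are read 5′ to 3′ along the gene's strand, with the element in capitals, and are shown because these 3 genes share it and all had lower means in the high group. They lie at chr2:34772017-34772046 (Hspa5, plus strand), chr14:118937807-118937865 (Dnajc3, plus strand) and chr10:86705513-86705676 (Hsp90b1, minus strand).
Hspa5: cgacttcaCCAATCGGAGGCCTCCACGacg
Dnajc3: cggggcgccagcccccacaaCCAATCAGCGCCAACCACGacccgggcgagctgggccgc
Hsp90b1: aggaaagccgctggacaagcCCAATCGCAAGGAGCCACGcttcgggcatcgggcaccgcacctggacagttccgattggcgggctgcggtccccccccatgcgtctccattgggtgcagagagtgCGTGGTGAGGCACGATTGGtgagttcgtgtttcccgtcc

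Hsp90b1 held 2 matches, the second on the opposite strand. Dnajb11 held a match to the other type of ER stress element, searched as ATTGG, 1 base of any kind and CCACG, which 0.0444% of genes with a window hold, and that match lay just after its start. Hspa13, Dnajb9 and Dnajc10, in which no match was found, also had lower means in the high group. Their log2 differences were −0.28, −0.25 and −0.13, and that of Dnajb11 was 0.0056. Lower means in the lumen genes were thus not confined to those with a match. A match describes the letters only, and a link to the levels was not tested.

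**Figure D5:**
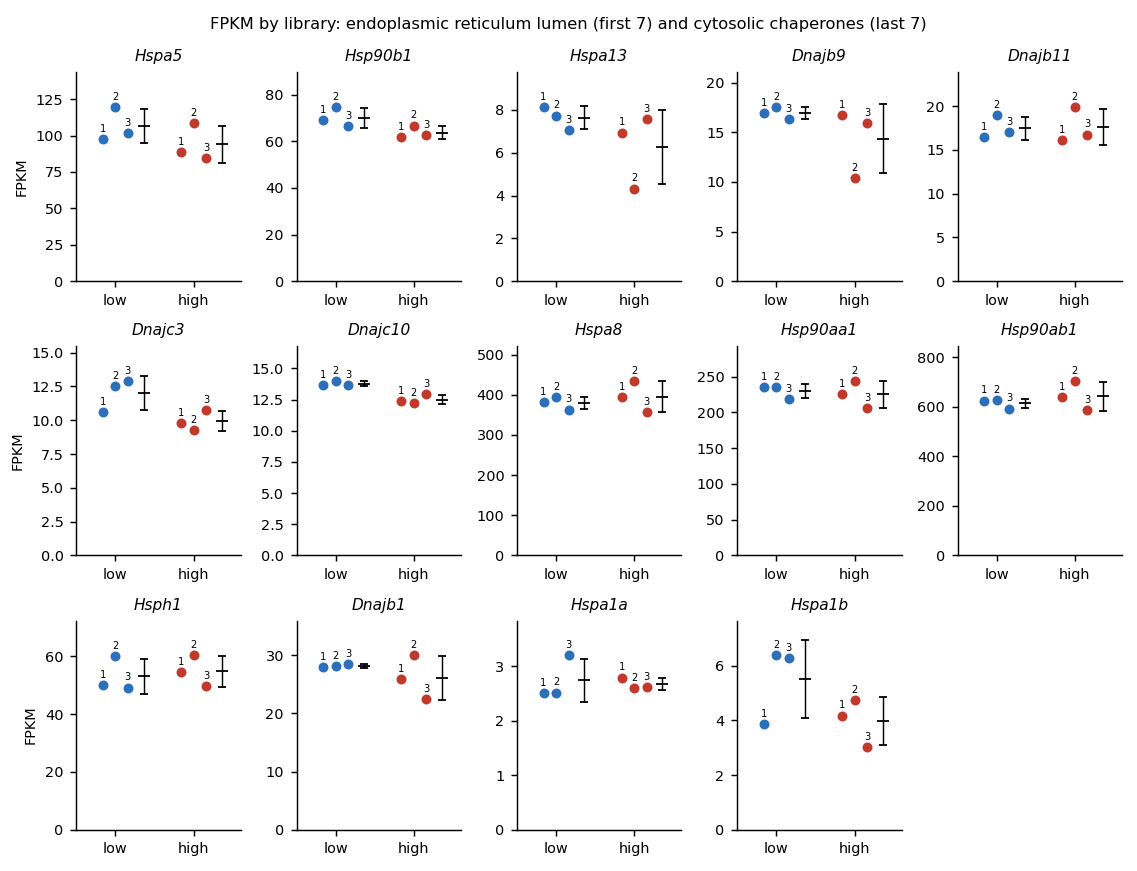
FPKM in each library of the 7 endoplasmic reticulum chaperone genes (Hspa5 to Dnajc10) and of 7 cytosolic chaperone genes (Hspa8 to Hspa1b). Points are libraries with their number, low in blue and high in red, and black bars are the mean ± SD of 3 libraries; within the high group, library 2 is the highest for Hspa5, Hsp90b1, Dnajb11, Hspa8, Hsp90aa1, Hsp90ab1, Hsph1, Dnajb1 and Hspa1b and the lowest for Hspa13, Dnajb9, Dnajc3, Dnajc10 and Hspa1a.

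The mitochondrial chaperonin genes Hspd1 (Hsp60) and Hspe1 (Hsp10) are transcribed in opposite directions from 1 stretch of chromosome 1. Their GENCODE starts are 111 bases apart and some of their exons overlap, so reads there may not have been told apart. Hspd1 had 59.8, 60.8 and 60.1 FPKM (high) against 63.6, 66.04 and 58.5 FPKM (low) (log2 difference −0.06, 95% interval −0.20 to 0.09; adjusted p = 0.813). Hspe1 had 35.9, 36.3 and 39.9 FPKM (high) against 34.1, 38.7 and 33.3 FPKM (low) (log2 difference 0.08, 95% interval −0.10 to 0.26; adjusted p = 0.781). Both overlapped, and in the low group library 2 was the highest and library 3 the lowest for both genes. Hspa9, or mortalin, the Hsp70 that pulls proteins into the matrix, had 49.1 ± 2.72 against 47.5 ± 1.18 FPKM. Of 8 genes whose proteins work in mitochondria, grouped after their values were seen, 4 were higher and 4 lower, with a median log2 difference of 0.01.

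The heat shock element, to which heat shock factors bind, was searched on both strands as GAA, TTC and GAA with 2 bases of any kind between them. It was found in 4 of the 53 genes with a window, Hspd1, Hspe1, Hsph1 and Dnajb6, and in 0.662% of all genes with a window. Hspd1 and Hspe1 share 1 site between their RefSeq starts, where matches on the 2 strands overlap. It is shown for Hspe1 at chr1:55088051-55088080 (plus strand), beside that of Dnajb6 at chr5:29735844-29735872 (plus strand), with the matches in capitals.
Hspe1: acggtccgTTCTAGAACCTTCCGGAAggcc
Dnajb6: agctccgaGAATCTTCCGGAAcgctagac

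The match of Hsph1 lay after its start. In these 4 genes the groups overlapped. Dnajb6, a DnaJ protein that holds back polyglutamine aggregates, had 16.03 ± 0.968 against 15.1 ± 0.959 FPKM. These letters are not in the windows of Hspa1a, Hspa1b and Dnajb1. Only exact matches inside the window were counted, so a less exact or more distant element would have been missed.

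The DnaJ genes of class C, which share only the J domain, divided between the directions. Of 24 tested, 13 were higher and 11 lower, with a median log2 difference of 0.0046. Dnajc4 had the smallest p of the chaperone genes with all 6 libraries, but not under every setting. Hspa2 had the smallest with array weights, with the GC trend taken out and without high library 2, and Dnajc3, Dnajc8 or Hspb8 under 5 other settings. With the GC trend taken out, the unadjusted p of Dnajc4 was not under 0.05. Dnajc4 lies on chromosome 19, from 6987911 to 6992572. It had 11.9, 11.3 and 11.4 FPKM (high) against 9.105, 10.4 and 10.1 FPKM (low). All high libraries were above all low libraries (log2 difference 0.21, SE 0.0699, 95% interval 0.05 to 0.37; adjusted p = 0.564).

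Dnajc13, or RME-8, which works in endosomal sorting, had 4.16, 4.07 and 3.96 FPKM (high) against 4.603, 4.58 and 4.58 FPKM (low). The low libraries were nearly equal and all above the high ones, with a log2 difference of −0.14 (SE 0.0667; adjusted p = 0.599). Dnajc21, a factor of ribosome assembly, had 4.27, 4.37 and 4.38 FPKM (high) against 4.16, 3.98 and 4.11 FPKM (low), separate in the other direction with a log2 difference of 0.07 (adjusted p = 0.764). Both are named because their groups were separate, after their values were seen. The authors' deposited table gives unadjusted p-values of 0.000802 for Dnajc13, 0.0063 for Dnajc10, 0.015 for Dnajc21 and 0.0198 for Dnajc4. These are the 4 chaperone genes under 0.05 in the authors' deposited table (6.25%), where 7.4% of all its genes are under 0.05.

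DnaJ proteins of synaptic vesicles overlapped between the groups. Dnajc5, which encodes cysteine string protein of the vesicle membrane, had 65.2, 64.7 and 60.6 FPKM (high) against 65.1, 61.8 and 62.7 FPKM (low), and the 95% interval of its log2 difference was −0.13 to 0.15. Dnajc6, or auxilin, which uncoats clathrin vesicles with Hsc70, had 53.4, 49.3 and 50.4 FPKM (high) against 57.3, 50.7 and 52.5 FPKM (low), and a log2 difference of −0.07 with a 95% interval of −0.22 to 0.09.

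All 4 class A genes, which have the domain order of bacterial DnaJ, had lower means in the high group, with 0 called and a median log2 difference of −0.10. The median was −0.05 without high library 3, and 1 of the 4 was higher without high library 1 or with the GC trend taken out. Dnaja1 had 27.7, 26.7 and 26.7 FPKM (high) against 29.9, 31.8 and 28.1 FPKM (low), with separate groups (log2 difference −0.14, SE 0.0644; adjusted p = 0.599). Exons of Dnaja1 overlap those of Smu1 on the opposite strand, and the use of strand in counting is not stated in the labels. Reads of the 2 genes may therefore not have been told apart. The same limit holds for other genes. Of the 64, 19 have an exon overlapping a gene on the opposite strand, among them Hspa12a, Dnaja4, Dnajb6 and Hspb6. On the same strand 8 of the 64 have such an overlap, among them Hspa14. Dnaja4 had 7.26, 9.15 and 6.37 FPKM (high) against 8.48, 8.61 and 8.21 FPKM (low). The low libraries lay inside the range of the high libraries, and without high library 2 the log2 difference was −0.27, against −0.15 with it (adjusted p = 0.260 and 0.722). Without high library 3 it was −0.04.

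The remaining class A genes overlapped. Dnaja2 had 56.9, 56.1 and 58.2 FPKM (high) against 59.8, 59.99 and 55.7 FPKM (low), and its log2 difference was −0.03, or 0.03 with the GC trend taken out. Dnaja3, which works in mitochondria, had 14.9, 17.9 and 16.4 FPKM (high) against 16.7, 17.2 and 17.1 FPKM (low).

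Of 9 tested class B genes 4 were higher and 5 lower, with 0 separate (14.9% of all tested genes). Dnajb2, a neuronal DnaJ protein that directs clients to degradation, had 21.2, 23.01 and 22.6 FPKM (high) against 21.9, 21.6 and 19.2 FPKM (low) (log2 difference 0.09; adjusted p = 0.731). Dnajb13, a component of the axoneme, was not analysed here.

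A few genes carry a prefix without being chaperones of that class. Hspb11, which encodes the intraflagellar transport protein Ift25, had 1.895, 2.21 and 2.25 FPKM (high) against 2.33, 2.46 and 2.59 FPKM (low). Its groups were separate in the same direction as the sums of ependymal and motile cilia markers (log2 difference −0.15, SE 0.0878; adjusted p = 0.649), with a log2 difference of −0.10 without high library 1, and the part of those cells in it was not tested. The nucleotide exchange factor Hspbp1 had 32.7, 31.1 and 31.5 FPKM (high) against 35.4, 29.8 and 33.8 FPKM (low), and Hspbap1 had 1.298, 1.25 and 1.23 FPKM (high) against 1.22, 1.55 and 1.58 FPKM (low). Both overlapped.

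Regulators and partners of the chaperones gave 0 calls as well. Of 9 tested heat shock factors and regulators, 4 were higher and 5 lower. At an unadjusted p under 0.05 there were 2 of the 9, where that threshold took 8.39% of all tested genes. Both were higher, as were 4.12% of all tested genes at that threshold. Hsf4, a heat shock factor known from the lens, had 13.5, 12.5 and 14.2 FPKM (high) against 10.9, 9.305 and 10.98 FPKM (low), with separate groups (log2 difference 0.34, SE 0.0831; adjusted p = 0.505). Hsf1, the main stress-responsive factor, had 10.1, 9.84 and 10.2 FPKM (high) against 9.35, 8.32 and 9.01 FPKM (low), also separate (log2 difference 0.16, SE 0.0664; adjusted p = 0.584). The transcript GC content was 61.0% for Hsf4 and 57.0% for Hsf1, close to that of Hspb1 (61.2%) and Dnajc4 (57.4%). Across genes the log2 difference rose with GC content, as given above. The values of Hsf4 and Hsf1 with that trend taken out are not given here. The third by p, Ubqln2, a ubiquilin, had 65.7 ± 8.87 against 72.04 ± 0.873 FPKM and overlapped. The transcripts of Hspa1a, Hspa1b, Dnajb1 and Hsph1, which Hsf1 is known to induce, overlapped between the groups.

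Of 30 Hsp90 and Hsp70 co-chaperones, 16 were higher and 14 lower, with a median log2 difference of 0.01. Fkbp4, an immunophilin of steroid receptor complexes, was the 1 of 30 at an unadjusted p under 0.05 (8.39% of all tested genes), at 52.6 ± 1.62 against 47.5 ± 1.86 FPKM (adjusted p = 0.584). Tomm34 had 31.2 ± 1.74 against 28.4 ± 0.3997 FPKM with separate groups. Tomm70a, a receptor of the mitochondrial surface, had 31.97 ± 5.32 against 37.9 ± 3.29 FPKM and overlapped.

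Of 15 tested genes of the cytosolic chaperonin CCT and of prefoldin, 9 were higher and 6 lower, with a median log2 difference of 0.04. Pfdn2, a prefoldin subunit and the 1 of 15 at an unadjusted p under 0.05 (8.39% of all tested genes), had 34.1, 32.98 and 36.1 FPKM (high) against 26.9, 31.05 and 28.03 FPKM (low), with separate groups (log2 difference 0.26, SE 0.0725; adjusted p = 0.548). Pfdn5 had 78.4 ± 5.22 against 68.7 ± 6.19 FPKM and the CCT subunit gene Tcp1 24.5 ± 0.868 against 26.7 ± 2.22 FPKM. Both overlapped.

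Of 25 other genes of endoplasmic reticulum folding and the unfolded protein response, 16 were lower and 9 higher, with a median log2 difference of −0.03. Groups were separate in 0 of 25 (14.9% of all tested genes), and 0 of 25 were at an unadjusted p under 0.05 (8.39%). Pdia3, a disulfide isomerase, had 61.5, 65.3 and 62.7 FPKM (high) against 64.6, 70.1 and 76.2 FPKM (low) (adjusted p = 0.605). Pdia4, of the same family, had 26.7 ± 3.05 against 30.7 ± 3.82 FPKM. Ppib, a prolyl isomerase, lay in the other direction at 23.99 ± 2.07 against 21.4 ± 1.76 FPKM.

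Of 13 genes of mitochondrial folding and proteolysis, 10 were higher and 3 lower, with a median log2 difference of 0.03. Yme1l1, a protease of the inner membrane, was the 1 of 13 at an unadjusted p under 0.05 (8.39% of all tested genes), at 7.67 ± 1.08 against 9.11 ± 0.501 FPKM (adjusted p = 0.596). Clpp, the subunit of a matrix protease, had 35.9 ± 2.66 against 33.5 ± 2.49 FPKM, and Pam16, of the import motor, had 6.57 ± 0.815 against 5.99 ± 0.212 FPKM. Both overlapped.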

How the data were processed

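Gene values were deposited by the authors as FPKM, 1 column per library, by the name of the deposited table. The tools named in the submitters' processing notes are fastp, HISAT2 and StringTie, and the build is GRCm38, with no versions or settings. The log2 fold change that the authors deposited equals log2 of the ratio of group means in all 13170 genes within 1e-06, and the p-value that the authors deposited is unadjusted. In 20 places a symbol had become a date, none of them a member. FPKM carry no counts, so log2(FPKM + 1) of 12026 genes with a mean of at least 1 went into a 2-sided limma fit (version 3.58.1, R 4.3.3) with a variance trend. Genes under the filter come from the same model on all genes. The fit was tested on simulated data. An exact permutation test of 3 against 3 cannot give a p under 0.1. Relative depth is the most common ratio between libraries over 1428 genes under 1.5 FPKM. Positions and transcript GC content come from GENCODE on GRCm38 (13055 symbols matched). Named members are those at an unadjusted p under 0.05, the 8 most abundant, 13 fixed genes, up to 3 per role with the smallest p, the 2 next to either side of the filter, and 3 per list. Members and lists were chosen with earlier results of these data known. Alternatives were other pseudocounts, filters and scalings, a replicate block, no variance trend, array weights, a GC and length trend removed (splines with 5 degrees of freedom) and libraries left out. Python 3.11.15 was used for the remaining steps.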

Additional observations from a re-analysis of the deposited data

How the results depend on the processing

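Members called over all genes numbered 0 under all 16 alternatives. The count of members at an unadjusted p under 0.05, 4 with all libraries, was 8 with array weights (13% of all genes at that threshold) and 2 after removal of the GC and length trend (7.62%). It ranged from 2 without high library 1 (7.09% of all genes) to 9 without high library 2 (11% of all genes) when libraries were left out in turn. The median log2 difference of the members was −0.0118 after removal of the GC and length trend and ranged from −0.0380 without high library 1 to −0.0145 without high library 3. Of 570 recomputed values of 36 genes, 555 kept direction and side of the threshold and 15 changed sign. Hspa1a was 0.0213 with array weights, and Dnaja2 was 0.0254 after removal of the GC and length trend. Without low libraries 1 and 3 together, Hspa1a was 0.0609, Hsph1 −0.134, Hspe1 −0.0516 and Dnajc6 0.00785, where the single low library left has no spread of its own and is taken to be as variable as the others. With 1 library left out in turn, Dnajc5 ranged from −0.0128 to 0.0399, Hspa1a from −0.0671 to 0.0617, Hsph1 from −0.0215 to 0.139, Hspa8 from −0.0131 to 0.126, Hsp90ab1 from −0.00827 to 0.125 and Hsp90aa1 from −0.0878 to 0.032. The cause of these shifts was not tested. Same-numbered libraries did not deviate together (Pearson r across genes −0.0939, −0.206 and −0.156), and no library correlated best with its own number. With the replicate block 4 members were at an unadjusted p under 0.05, Hspa5 in place of Hspb1, and 743 of all genes against 1009 without it. With 3 libraries a group and a median standard error of 0.0893 on the log2 scale, differences as small as most of those seen were not detectable.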
